A study of Mus musculus with 8 samples.

Results

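Saa3, Lcn2 and Hp are 3 acute-phase genes of the 24787 genes listed in the single-cell count tables of 8 MC38 tumors, and they were followed here across cell classes and treatments. The genes were chosen because of their own values: levels in monocytes and macrophages after the R848 prodrug were known when the choice was made. Their levels are therefore a description, given without a test. MC38 is a mouse colon carcinoma line, here 1 transplanted line grown under the skin of young adult female C57BL/6J mice. Tumors were taken 24 hours after 1 dose of saline (n = 3), of free R848 (resiquimod, an agonist of TLR7/8, n = 3) or of medium BPD (n = 2), a bottlebrush polymer that carries R848 on a linker of intermediate release rate. No gene was deleted or introduced in any group. CD45+ and CD45- cells of each tumor were loaded onto Seq-Well arrays with CD45+ cells in excess, so the shares of cell classes were set in part by loading. The labels give no dose, so the order saline, free R848, medium BPD is a list of 3 treatments and not a dose series, and both steps use the same free R848 tumors.

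The acute-phase response is the change in secreted proteins that follows infection or injury. It is driven mainly by IL-6 through STAT3 and by IL-1 and TNF through NF-kB, together with C/EBP factors. Saa3 encodes serum amyloid A3, a lipid-binding protein that in the mouse is made largely outside the liver, by macrophages among other cells. Lcn2 encodes lipocalin-2, which sequesters bacterial siderophores and so withholds iron, and is also a granule protein of neutrophils. Hp encodes haptoglobin, which captures free hemoglobin for uptake through CD163, and is made by liver and by maturing myeloid cells.

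On GRCm38 (GENCODE vM21) the 3 genes are protein coding and lie on the minus strand: Saa3 at chr7:46711998-46715700, Lcn2 at chr2:32384633-32388252 and Hp at chr8:109575128-109579172. RefSeq promoter sequence (GRCm38.p6) was at hand for 2 of the 3 members, Saa3 and Lcn2. The stretches upstream of both are printed because both genes were higher after free R848 and higher again after medium BPD, with matches to C/EBP, NF-kB and interferon response motifs in capitals, 5′ to 3′ on the gene's strand. The Saa3 stretch covers chr7:46715701-46715926, from 250 to 25 bases before the start, and the Lcn2 stretch covers chr2:32387798-32387850, from 111 to 59 bases before the start. These starts are those of RefSeq: GENCODE also lists a longer Lcn2 transcript that begins upstream at 32388252, and the Lcn2 stretch lies in an intron of it.
Saa3: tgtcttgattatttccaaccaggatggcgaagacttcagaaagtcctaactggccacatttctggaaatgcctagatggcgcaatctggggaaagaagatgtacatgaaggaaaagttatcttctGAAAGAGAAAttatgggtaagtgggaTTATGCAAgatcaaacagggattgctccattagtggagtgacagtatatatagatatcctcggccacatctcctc
Lcn2: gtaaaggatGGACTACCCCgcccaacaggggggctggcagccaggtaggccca
In Saa3 the capitals mark GAAAGAGAAA, a match to the interferon-stimulated response element (GAAA, any 2 bases, GAAA) that begins 125 bases before the start, and TTATGCAA, a match to the C/EBP motif TTNNGCAA 99 bases before the start. In Lcn2 they mark GGACTACCCC, a match on the opposite strand to the NF-kB motif (GGG, any 5 bases, CC) 102 bases before the start. A further opposite-strand match to the C/EBP motif, TTGCTCAA, lies 216 bases before the Lcn2 start, outside the printed stretch. Over both strands of the 32851 mouse promoters of the same length, the C/EBP letters occurred in 9.56%, the NF-kB letters in 45.8% and the response element in 2.98%. The letters searched for STAT (TTCNNNGAA), AP-1 (TGANTCA) and a TATA box (TATAAA) were in neither window and in 7.02%, 6.75% and 12.4% of promoters. These matches are letters in a window and say nothing of binding.

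Libraries held 5867590 to 12422614 unique molecular identifiers (UMIs, each counting 1 captured transcript). Of 10791 barcodes, 9827 were kept, with medians of 3252 to 6995 UMIs per cell and tumor. Cells were gated by marker panels into monocyte/macrophage (5342 cells), MC38 (1271), NK (805), DC (418), T (413), osteoclast (109), neutrophil (76) and fibroblast classes (71). Monocyte/macrophage-gated cells had a median of 9 of the 10 markers of their panel and a median of 0 neutrophil or fibroblast markers. They were divided into a monocyte side and a macrophage side by which of 2 panels had the larger share of its genes detected. In 532 of them the 2 shares differed by at most 0.1. Some libraries stood apart: saline tumor 2 had 4.43% of its monocyte/macrophage-gated cells on the monocyte side, against 38.4% to 40.0% in the other saline tumors, and medium BPD tumor 2 gave 356 MC38-gated cells against 96 in tumor 1. A total of 23 barcodes occurred in more than 1 library, 9 of them in all 8, and were left out. The labels name no batch, so a batch and the treatment cannot be told apart.

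Levels in monocyte/macrophage-gated cells were highest after medium BPD for all 3 genes. They are given as CPM, UMIs of the gene per 1000000 UMIs summed over the cells of a class in each tumor, scaled by TMM factors. This scale does not correct for gene length, so levels are compared within a gene. A summed level does not separate more expressing cells from more RNA per cell.

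Saa3 measured 4.43, 14.2 and 93.6 CPM after saline, 135, 100.4 and 119 CPM after free R848, and 11502 and 16298 CPM after medium BPD. The 3 treatments did not overlap, and the distance between the medium BPD and free R848 tumors was far larger than the spread within either. Group means were 37.4 ± 48.9 (SD, n = 3), 118 ± 17.2 (n = 3) and 13900.1 ± 3392 CPM (n = 2). The mean after medium BPD was 118 times that after free R848 (log2 ratio 6.88), and the mean after free R848 was 3.16 times that after saline (log2 ratio 1.66). The highest saline value rested on few cells: of the 246 Saa3 UMIs in saline tumor 3, 142 came from 1 cell of 2890 UMIs, which had no Dcn or Col3a1 UMI. Without saline tumor 3 the log2 ratio of free R848 to saline was 3.66.

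Lcn2 was near absence after saline, at 0, 0.281 and 1.14 CPM (0, 2 and 3 UMIs). It measured 13.9, 10.3 and 8.25 CPM after free R848 and 600.0 and 617 CPM after medium BPD. The groups did not overlap, and the medium BPD tumors differed from each other by less than the free R848 tumors did in proportion. Means were 0.474 ± 0.595, 10.8 ± 2.87 and 609 ± 12.2 CPM. The ratio of medium BPD to free R848 was 56.3 (log2 5.81), and that of free R848 to saline was 22.8 (log2 4.51), which rests on the 5 UMIs of the saline tumors.

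Hp was detected in every tumor, at 79.1, 13.8 and 49.1 CPM after saline, 62.6, 22.7 and 42.0 CPM after free R848, and 223 and 183 CPM after medium BPD. The saline and free R848 tumors overlapped, and both medium BPD tumors were above all 6 others. Means were 47.3 ± 32.7, 42.5 ± 20 and 203 ± 28.1 CPM, a ratio of 4.78 (log2 2.26) for medium BPD to free R848. The log2 ratio of free R848 to saline was -0.16, and its sign changed with the tumors included.

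All 3 genes passed the filter on low counts in this class. In the edgeR fit over 10696 genes, 1.51% of genes were called between medium BPD and free R848, 0.0187% between free R848 and saline and 6.94% between medium BPD and saline, at an adjusted p under 0.05. Saa3 and Lcn2 were among the genes called in the first and last comparison, and Lcn2 in the second, where the only other gene called was Ccl5. Since the members were chosen on these contrasts, nothing is read from those calls. Saa3 and Lcn2 rose over both steps with no overlap between tumors, as did 1.86% of all genes tested, and Hp did not.

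**Figure D1:**
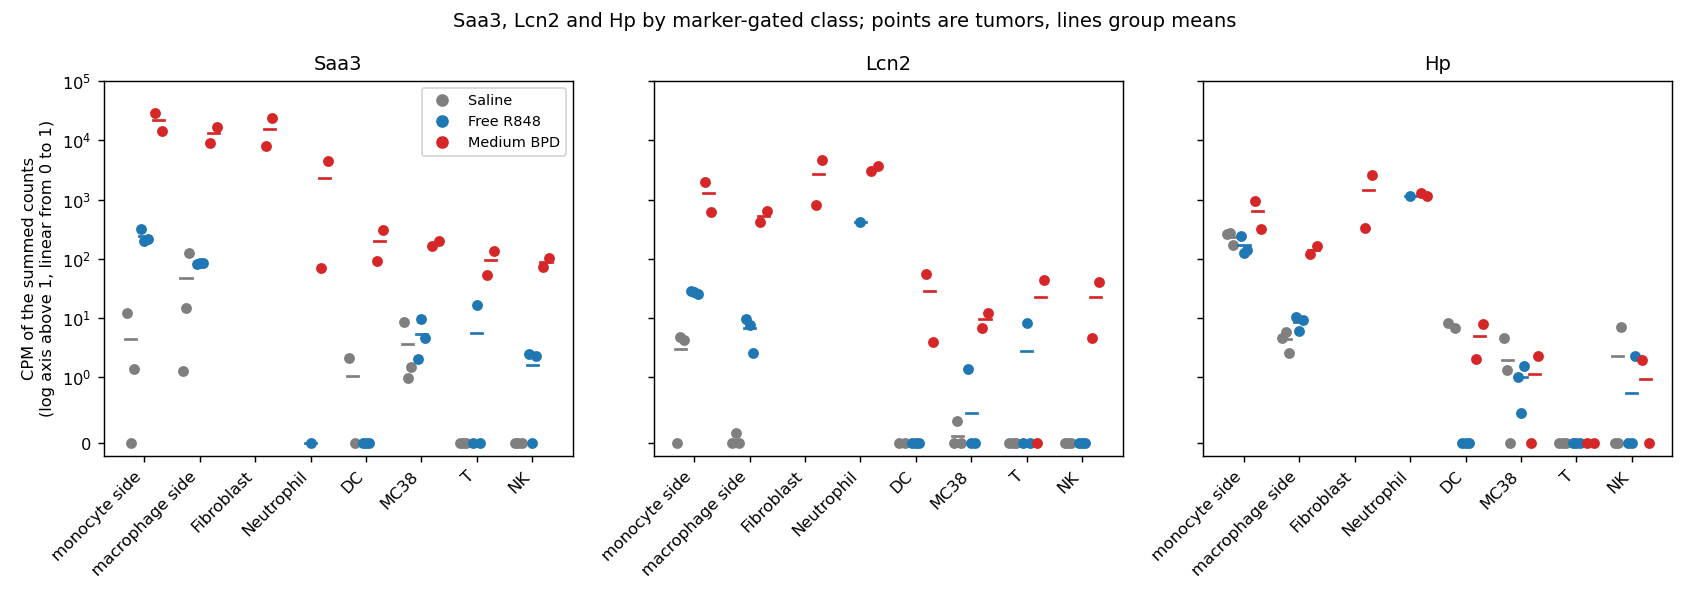
CPM of Saa3, Lcn2 and Hp in 8 cell classes (x axis), on a y axis that is logarithmic above 1 and linear from 0 to 1; a point is a tumor in which the class had 10 cells or more, and short lines are group means. Saa3 after medium BPD lies between 9137 and 29111 CPM on the monocyte and macrophage sides and between 53.7 and 133 CPM in T-gated cells, and Hp is at 0 in all T-gated points.

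On the monocyte side, defined by Ly6c2, Plac8, Ccr2 and related genes, Saa3 measured 11.9, 0 and 1.39 CPM after saline, 315, 199 and 219 CPM after free R848 and 29111 and 14238 CPM after medium BPD. On the macrophage side, defined by C1qa, Mrc1, Trem2 and related genes, it measured 1.30, 14.9 and 127 CPM after saline, 82.2, 85 and 85.5 CPM after free R848 and 9137 and 16969 CPM after medium BPD. The free R848 tumors were thus above the saline tumors on the monocyte side and within their range on the macrophage side. The difference between the sides was not tested.

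Lcn2 on the monocyte side measured 0, 4.76 and 4.18 CPM, then 28.1, 27.1 and 25.5 CPM, then 1944 and 611 CPM in the same order. On the macrophage side it measured 0, 0.148 and 0 CPM, then 9.75, 7.64 and 2.58 CPM, then 416 and 630.4 CPM. Neither side had overlapping treatments, and the saline levels rest on 4 UMIs on the monocyte side and 1 on the macrophage side.

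Hp after saline was mainly found on the monocyte side. On the monocyte side it measured 259, 276 and 173 CPM after saline, 245, 127 and 142 CPM after free R848 and 950.2 and 321 CPM after medium BPD. On the macrophage side it measured 4.54, 5.91 and 2.60 CPM after saline, 10.3, 6.11 and 9.27 CPM after free R848 and 122 and 163 CPM after medium BPD. Medium BPD tumors were above the others on both sides, by a ratio of means to free R848 of 3.71 on the monocyte side and 16.6 on the macrophage side. The ratio of the monocyte to the macrophage side was 52.8, 44.2 and 61.7 after saline, 24.0, 22.2 and 15.5 after free R848, and 7.92 and 2.17 after medium BPD, with no overlap between treatments. Saline tumor 2, with the lowest Hp level in the whole class, had the lowest share of monocyte-side cells and the highest Hp level of the saline tumors on each side. The part of that share in the level was not tested. The corresponding Saa3 ratios after medium BPD were 3.25 and 0.928 and those of Lcn2 4.76 and 1.07, so the sides differed in medium BPD tumor 1 more than in tumor 2 for all 3 genes.

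Fibroblast-gated cells, with 4, 8 and 6 cells after saline and 1, 6 and 3 after free R848, gave a level only after medium BPD, from 13 and 30 cells. There Saa3 measured 8066 and 23457 CPM, Lcn2 800.2 and 4565 CPM and Hp 333 and 2588 CPM. All 3 genes were higher in tumor 2. These cells held 7056 and 6808 UMIs of the collagen gene Col3a1 and only 1 and 6 UMIs of Lyz2, the lysozyme gene abundant in macrophages, beside 1623 and 6027 Saa3 UMIs. They also held markers of other classes: Csf1r of macrophages had 13 and 4 UMIs, the MC38 marker Mtap 13 and 34 UMIs in 7 of 13 and 12 of 30 cells and the MC38 marker Rhox5 13 and 10 UMIs, and fibroblast-gated cells of all tumors had a median of 5 fibroblast and 2 MC38 markers. Their part in the levels was not tested. In saline tumor 1, 1 fibroblast-gated cell with 120 Dcn and 441 Col3a1 UMIs held 270 of the 307 Saa3 UMIs of all kept cells of that tumor, and all 6 of its Lcn2 UMIs.

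Neutrophil-gated cells reached 10 cells only in free R848 tumor 3 (28) and the medium BPD tumors (15 and 14). Lcn2 measured 412 CPM in the first and 3027 and 3736 CPM in the others. Hp measured 1144 CPM in the first and 1287 and 1149.7 CPM in the others. Saa3 measured 0 CPM in the first and 69.6 and 4527 CPM in the others. Of the 189 Saa3 UMIs behind the last value 153 were in 1 cell, and without it the level was 968 CPM. Hp in neutrophils thus lay in the same range after free R848 and medium BPD, whereas Lcn2 was higher after medium BPD in the few tumors that could be compared.

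In the other classes levels were low. DC-gated cells had no Saa3 or Lcn2 UMI in the 3 free R848 tumors, and after medium BPD had 90.4 and 310.0 CPM of Saa3, 54.3 and 3.92 CPM of Lcn2 and 2.01 and 7.85 CPM of Hp. MC38-gated cells had 0.991 to 8.59 CPM of Saa3 after saline, 2.04 to 9.49 CPM after free R848 and 162 and 198 CPM after medium BPD. Their Lcn2 did not exceed 1.36 CPM before medium BPD and measured 6.87 and 12.1 CPM after it, and their Hp stayed between 0 and 4.55 CPM in all 8 tumors. Saa3 and Lcn2 passed the filter in MC38-gated cells and Hp did not. Of 10354 genes tested there 0.493% were called between medium BPD and free R848, Saa3 and Lcn2 among them, from which nothing is read. Osteoclast-gated cells held no UMI of any member in the 2 tumors with at least 10 such cells.

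The order of the classes after medium BPD differed by gene. For Saa3 the means ran from the monocyte side (21675 CPM) through fibroblasts (15762 CPM) and the macrophage side (13053 CPM), whose ranges overlapped, to neutrophils, DCs, MC38, T and NK cells. Among these, neighbors overlapped except MC38 and T cells, and neutrophils and DCs also overlapped T and NK cells. Single cells weighed on this order: without the 1 cell with most Saa3 UMIs, MC38 measured 99.5 and 145 CPM, the first of them below the highest T and NK values of 133 and 102 CPM. With the top cell left out of those classes too, T cells measured 49.2 and 9.11 CPM and NK cells 64.8 and 96.0 CPM. For Lcn2 neutrophils (mean 3382 CPM) and fibroblasts (2683 CPM) overlapped and stood over the monocyte side (1278 CPM) and the macrophage side (523 CPM), which overlapped each other and, for the monocyte side, the fibroblasts. For Hp fibroblasts (1461 CPM) and neutrophils (1218 CPM) overlapped. They were followed by the monocyte side (635 CPM), which overlapped fibroblasts, and by the macrophage side (143 CPM), which overlapped no other class.

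**Figure D2:**
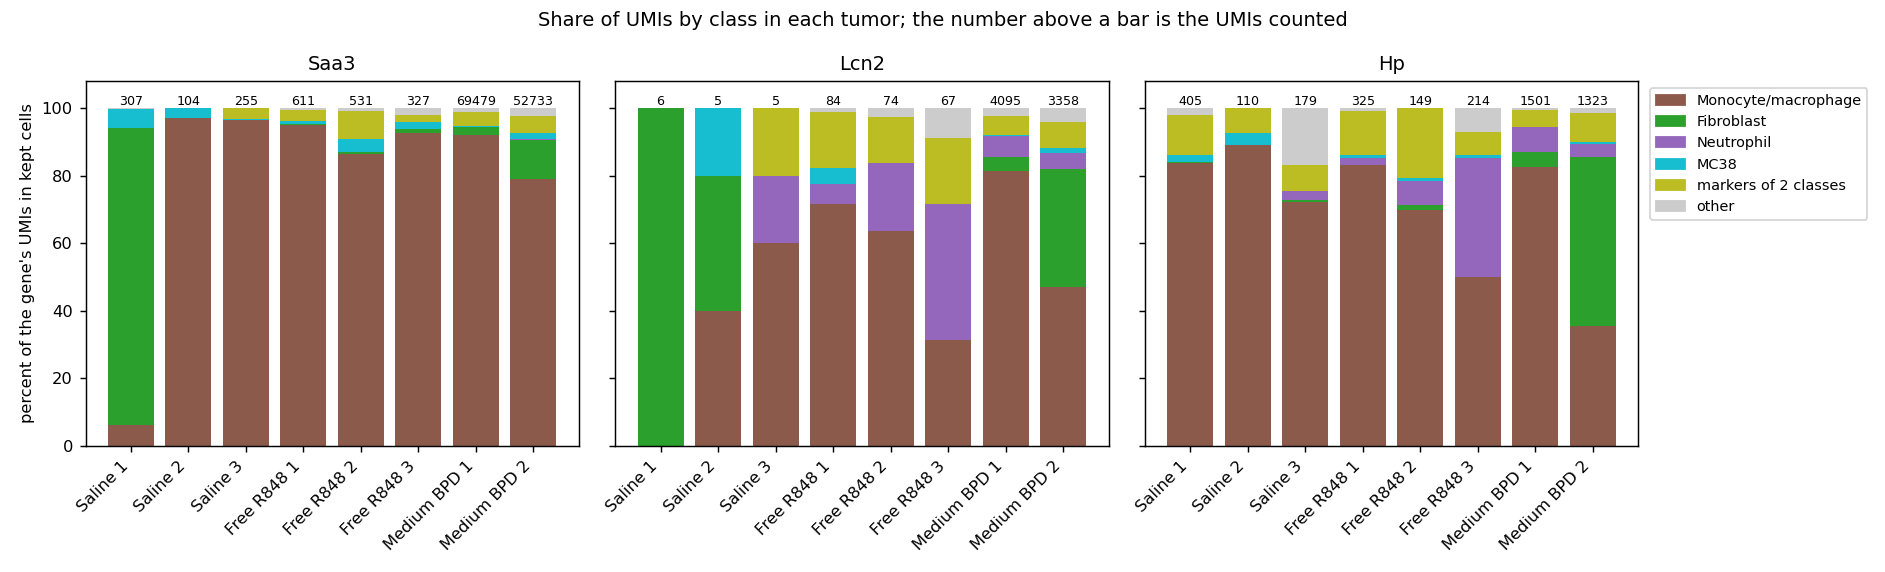
Share of all UMIs of each gene in the kept cells of a tumor (y axis, percent) by cell class, with 1 bar for each of the 8 tumors and the number of UMIs above it. Monocyte/macrophage-gated cells held 92.0% and 79.1% of the Saa3 UMIs after medium BPD, while fibroblast-gated cells held 50.3% of the Hp UMIs of medium BPD tumor 2.

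The classes held unequal shares of the members' UMIs among the loaded cells, which were enriched for CD45+ cells and so do not stand for a whole tumor. Monocyte/macrophage-gated cells held 92.0% and 79.1% of the Saa3 UMIs, 81.5% and 47.0% of the Lcn2 UMIs and 82.5% and 35.4% of the Hp UMIs of the kept cells in medium BPD tumors 1 and 2. Fibroblast-gated cells, 0.962% and 2.47% of the kept cells, held 2.34% and 11.4% of Saa3, 3.93% and 34.9% of Lcn2 and 4.46% and 50.3% of Hp. The top Hp cell of medium BPD tumor 2 was a fibroblast-gated cell with 304 UMIs, 23.0% of all Hp UMIs of that tumor. Without it the fibroblast level of Hp there was 1527 CPM. In free R848 tumor 3 the 28 neutrophil-gated cells held 40.3% of Lcn2 and 35.0% of Hp UMIs and none of the Saa3 UMIs.

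Neutrophil granule transcripts were given beside Lcn2 and Hp because both are granule proteins. Within monocyte/macrophage-gated cells, the granule genes Ltf, Camp and Ngp did not exceed 1.09, 0.232 and 0.782 CPM in any tumor. The calprotectin gene S100a8 measured 0.422 to 6.09 CPM after saline, 9.40 to 12.2 CPM after free R848 and 30.4 and 43.0 CPM after medium BPD, so it moved in the same order as Lcn2. Mmp8, another gene of the granule list, measured 3.23 to 27.0 CPM after saline, 21.1 to 34.6 CPM after free R848 and 201 and 249.8 CPM after medium BPD. The part of these genes in the Lcn2 and Hp levels was not tested.

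Saa3 was spread over most monocyte/macrophage-gated cells after medium BPD and held by few before it. Cells with at least 1 Saa3 UMI numbered 7 of 768, 9 of 970 and 3 of 630 after saline, 96 of 529, 71 of 773 and 56 of 478 after free R848, and 564 of 698 and 390 of 496 after medium BPD. Cells with at least 10 Saa3 UMIs numbered 0, 4 and 2 after saline, 16, 11 and 4 after free R848, and 432 (61.9%) and 325 (65.5%) after medium BPD. The median medium BPD cell had 50.1 and 71.0 Saa3 UMIs per 10000 UMIs, and the 90th percentile had 425 and 405. The top 10% of cells held 47.5% and 45.8% of the Saa3 UMIs, and no single cell held more than 2.05%. In free R848 tumor 3, by contrast, 1 cell with 106 UMIs held 35.0% of the class's Saa3 UMIs.

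Lcn2 was found in 0, 2 and 2 cells after saline, 42, 32 and 13 after free R848, and 401 and 245 after medium BPD. Cells with at least 10 Lcn2 UMIs occurred after medium BPD alone in this class, as 103 (14.8%) and 52 (10.5%) of its cells. Hp was found in 114, 38 and 60 cells after saline, 82, 49 and 38 after free R848, and 241 and 123 after medium BPD. The top 10% of cells held 77% and 81.6% of the Hp UMIs after medium BPD, a larger part than for Saa3.

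**Figure D3:**
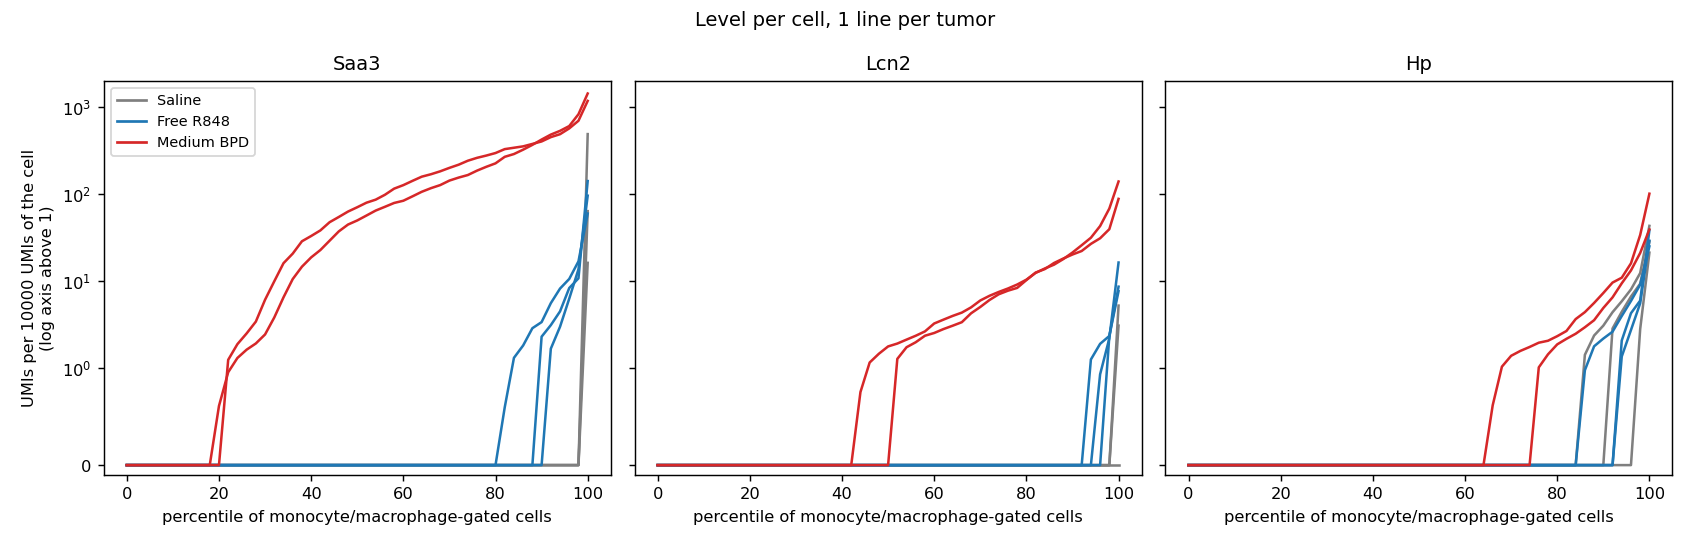
Level of Saa3, Lcn2 and Hp per monocyte/macrophage-gated cell (y axis, UMIs per 10000 UMIs of the cell, logarithmic above 1) against the percentile of cells ordered by that level, with 1 line per tumor. The medium BPD lines leave 0 near the 20th percentile for Saa3, where the median cell has 50.1 and 71.0 UMIs per 10000, and much later for Hp.

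Co-detection was measured after thinning each cell to 1000 UMIs, so that deep cells did not gain pairs from depth. In medium BPD tumors 1 and 2 (698 and 496 cells) Saa3 was then found in 66.3% and 71.4% of monocyte/macrophage-gated cells, Lcn2 in 28.9% and 26.6% and Hp in 14.2% and 10.3%. In the free R848 tumors the shares were 9.07%, 4.15% and 4.82% for Saa3, 1.13%, 1.17% and 1.05% for Lcn2 and 5.29%, 2.59% and 3.14% for Hp. In the saline tumors Saa3 was found in 1, 5 and 2 cells, Lcn2 in 0, 0 and 1 cells and Hp in 54, 9 and 29 cells. Hp was the only member with a share over 1% in saline tumors 1 and 3, at 7.05% and 4.64%.

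Saa3 and Lcn2 were found together in 23.4% of cells (exact 95% binomial interval 20.3% to 26.7%) of medium BPD tumor 1, where the product of the single shares was 19.2%. The pair was found in 23.2% (19.5% to 27.2%) of tumor 2, where the product was 19.0%. The ratio of the observed to the product share was 1.22 in both. Intervals here cover counting error within a tumor only, since cells of a tumor share their source. Lcn2 and Hp were found together in 7.45% and 5.44% of cells against products of 4.10% and 2.74%, ratios of 1.81 and 1.99. Saa3 and Hp were found together in 12% and 8.67% against 9.41% and 7.34%, and in tumor 2 the product lay within the interval of 6.35% to 11.5%. All 3 genes were found in 6.59% and 4.84% of cells against products of 2.72% and 1.95%. A gene found in most cells limits how far a pair can exceed its product, so these ratios are not compared between pairs with and without Saa3.

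**Figure D4:**
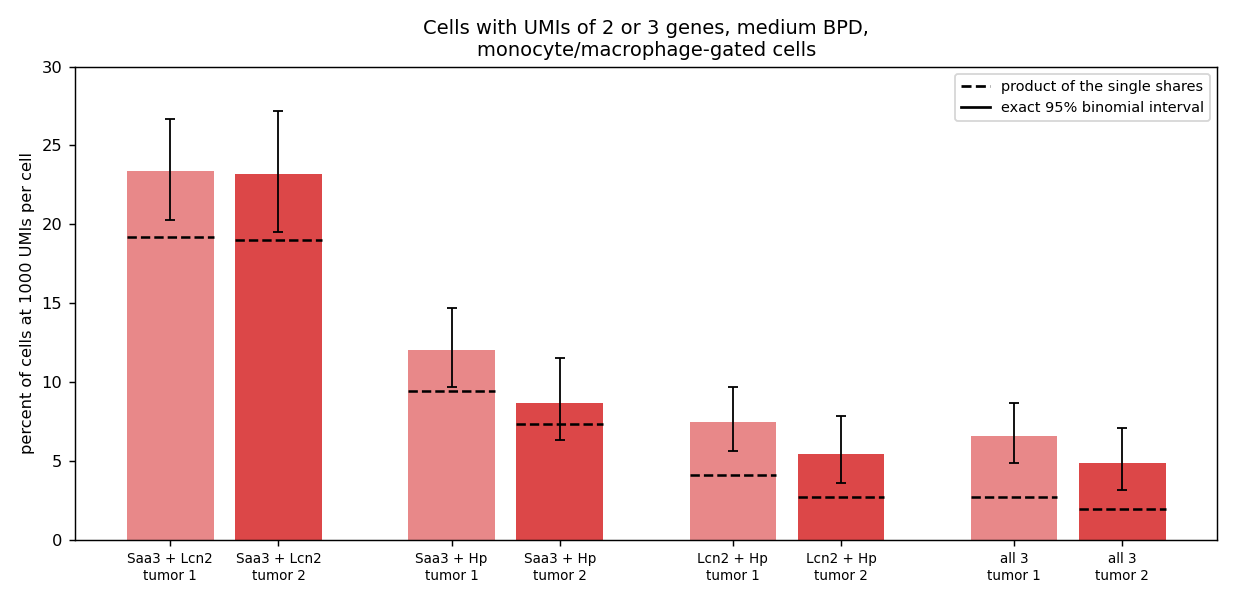
Percent of monocyte/macrophage-gated cells (y axis) of medium BPD tumors 1 and 2 that held UMIs of 2 or all 3 genes at 1000 UMIs per cell; bars start at 0, error bars are exact 95% binomial intervals and dashed lines are the products of the single shares. The dashed line lies below every bar, and within the error bar for Saa3 and Hp in tumor 2 alone.

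The pairs were also counted within each side of the class. On the monocyte side Saa3 and Lcn2 were found together in 47.1% and 28.4% of cells against products of 42.5% and 25.6%, a ratio of 1.11 in both tumors. On the macrophage side they were found together in 18.5% and 22.2% against 15.2% and 17.6%, ratios of 1.22 and 1.26. The intervals on the monocyte side, 37.8% to 56.4% and 18.9% to 39.5%, held the product, so an excess of this pair was not detectable there at this number of cells. All 3 genes were found in 22.7% (15.5% to 31.3%) and 9.88% (4.36% to 18.5%) of monocyte-side cells against products of 14.6% and 6.01%, and the product lay outside the interval in tumor 1 alone. The single shares differ between the sides, so the ratios are not compared between them.

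Seen from 1 gene to the next, Lcn2 was found in 35.2% of the cells of medium BPD tumor 1 with Saa3 and in 16.6% of those without it, whose median depths before thinning were 5703 and 7078 UMIs. In tumor 2 the shares were 32.5% and 12%. Hp was found in 25.7% and 20.5% of cells with Lcn2 and in 9.48% and 6.59% of those without it. Conversely, Saa3 was found in 80.7% and 87.1% of cells with Lcn2 and in 60.5% and 65.7% of cells without it, so most cells without detected Lcn2 still held Saa3. Before medium BPD the pair was rare: 4, 3 and 1 monocyte/macrophage-gated cells of the free R848 tumors held Saa3 and Lcn2. No monocyte/macrophage-gated cell of the saline tumors held the pair, and Lcn2 itself was found in only 1 of them at this depth.

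In fibroblast-gated cells of medium BPD tumor 2, Saa3 was found in 24 of 30 cells at 1000 UMIs, Lcn2 in 20 and Hp in 11. All 20 cells with Lcn2 also held Saa3, and all 11 with Hp held both other genes. In tumor 1, 10 of 13 cells held Saa3, 2 held Lcn2 and 1 held Hp. The neutrophil-gated cells differed between tumors. In medium BPD tumor 1, Lcn2 was found in 11 and Hp in 10 of 14 cells and Saa3 in none. Before thinning, 5 of 15 neutrophil-gated cells of that tumor (33.3%) held a Saa3 UMI, 6 UMIs in all. Their Saa3 level was 0.659% (0.242% to 1.44%) of the monocyte/macrophage level, in the range of T- and NK-gated cells of that tumor, and no expression is read from it. In tumor 2 Saa3 was found in 6 of 14 cells, Lcn2 in 11 and Hp in 7. In free R848 tumor 3, Saa3 was found in 0 of 28 neutrophil-gated cells, Lcn2 in 8 and Hp in 13.

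T- and NK-gated cells were examined because RNA freed from other cells can enter any well. Saa3 had no UMI in T- or NK-gated cells of the 3 saline tumors. After free R848, T-gated cells held 0, 4 and 0 Saa3 UMIs and NK-gated cells 2, 0 and 1. The 4 UMIs were in 1 cell of tumor 2 and put its T level at 16.6% (4.52% to 42.5%) of the low monocyte/macrophage level of that tumor, above 14 of 15 monocyte and macrophage panel genes. After medium BPD, T-gated cells (92 and 20 cells) held 34 and 15 Saa3 UMIs and NK-gated cells (177 and 39 cells) held 113 and 20. Of the 15 UMIs in T-gated cells of tumor 2, 14 were in 1 cell. On CPM without TMM scaling, the T level was 0.476% (0.329% to 0.665%) and 0.839% (0.470% to 1.38%) of the monocyte/macrophage level of the same tumor, and the NK level was 0.637% (0.525% to 0.766%) and 0.658% (0.402% to 1.02%). Within each tumor the T and NK intervals overlapped.

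The same percentage was computed after medium BPD for 15 monocyte and macrophage panel genes. In T-gated cells its median was 0.473% in tumor 1 and 0.268% in tumor 2, and 8 of the 15 genes were below Saa3 in each. In NK-gated cells the median was 0.340% and 0, with 13 and 11 genes below Saa3. The highest panel gene in both classes was Ccr2, a chemokine receptor that lymphocytes also express. Saa3 was thus above the panel median and below Ccr2 in each of these 4 values. Without the 1 cell with most Saa3 UMIs, the T percentages were 0.435% and 0.0573%, both below the panel median. The NK percentages were then 0.561% and 0.620%, still above it. In MC38-gated cells Saa3 was at 1.42% (1.25% to 1.60%) and 1.25% (1.17% to 1.33%) of the monocyte/macrophage level, above 14 of the 15 panel genes in each tumor, whose medians were 0.554% and 0.431%. Single cells held 103 of the 260 and 235 of the 871 Saa3 UMIs behind these values, and without them the level was 0.871% and 0.914%, above 13 of the panel genes in each tumor. In fibroblast-gated cells it was at 71.0% and 148%, above all 15.

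At 1000 UMIs per cell, 5.43% and 5.0% of T-gated cells held a Saa3 UMI, beside 7.91% and 12.8% of NK-gated, 7.29% and 8.15% of MC38-gated and 6.52% and 20% of DC-gated cells. Median depths of these classes in tumor 1 were 5278 (T), 7291 (NK), 15588 (MC38) and 5030 UMIs (DC). The intervals of T, NK and MC38 cells overlapped in each tumor, and no expression is read from the lymphocyte shares. Whether these UMIs came from the cells themselves or from other cells was not tested, and MC38-gated cells, where Saa3 stood above most panel genes, are not a measured background. Lcn2 in T-gated cells had 0 and 5 UMIs and in NK-gated cells 7 and 8 after medium BPD. In tumor 1 the NK level was 0.757% (0.304% to 1.56%) of the monocyte/macrophage level, and the upper bound on the T level was 0.989%. In tumor 2 the T and NK levels were 7.38% (2.40% to 17.2%) and 6.95% (3.0% to 13.7%) of the monocyte/macrophage level. These were above 13 and 14 of the 15 panel genes and above the percentages of Saa3. In NK-gated cells 7 of the 8 UMIs were in 1 cell, without which the level was 0.895%, and in T-gated cells the level without the cell with most Lcn2 UMIs was 4.75%. In NK-gated cells Hp had 4 UMIs in saline tumor 3, all in 1 cell and 14.47% (3.94% to 37.0%) of the monocyte/macrophage level, 1 in free R848 tumor 3, 3 in medium BPD tumor 1 (0.874%) and none in the other tumors. Hp had no UMI in T-gated cells of any of the 8 tumors, and in medium BPD tumor 1 the upper bound on its level there was 2.67% of the monocyte/macrophage level, so its absence was not distinguishable from the percentage of Saa3.

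**Figure D5:**
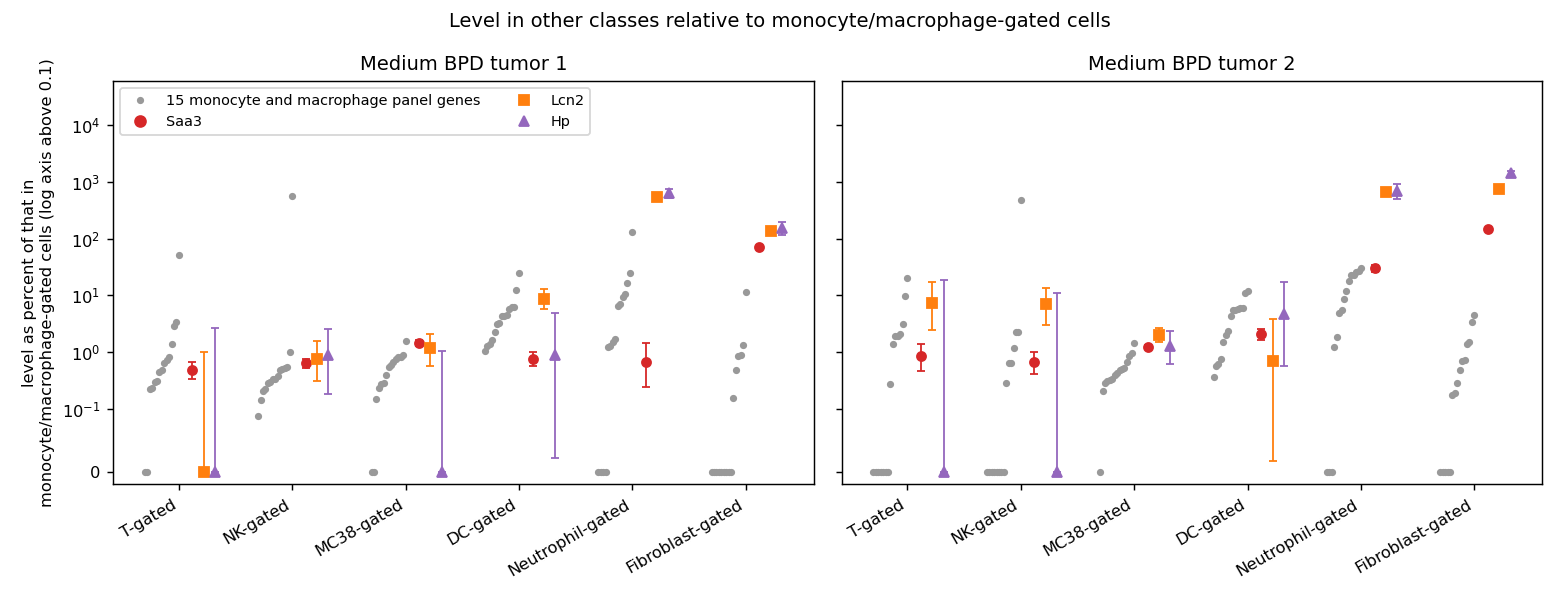
Level of Saa3, Lcn2 and Hp in 6 other classes as percent of the level in monocyte/macrophage-gated cells of the same tumor (y axis, logarithmic above 0.1), for medium BPD tumors 1 and 2, beside 15 monocyte and macrophage panel genes as grey points. Error bars are exact 95% Poisson intervals; Saa3 in T-gated cells lies at 0.476% and 0.839%, among the grey points, and in fibroblast-gated cells at 71.0% and 148%, above them.

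Barcodes that reached the marker minimum of both a T and the monocyte/macrophage panel were gated in neither class. In the medium BPD tumors 24 and 15 such barcodes carried 9403 and 6795 CPM of Saa3, and 13 and 14 barcodes with both NK and monocyte/macrophage markers carried 4637 and 3894 CPM. These levels are far above those of the T- and NK-gated cells. How many of these barcodes joined a class, and which class, was not counted. Their median depths were 10768, 6804, 10555 and 7464 UMIs.

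Genes of the acute-phase and related pathways were tested in the same edgeR fits, from 4 lists that do not hold the members. The p-values weigh the difference between treatments against the spread between these tumors. Of 12 acute-phase proteins tested (31 listed in the files), Saa1 and Mt2 were called higher between medium BPD and free R848, against a background of 1.51% of genes. Saa1, a related serum amyloid A gene, had no UMI in this class in the other 6 tumors and measured 15.5 and 20.7 CPM after medium BPD. It passed the filter only through the tumors in which it is high, so its call is no support and its p is not given. In fibroblast-gated cells Saa1 held 31 and 77 UMIs and Saa2 12 and 12 UMIs. Saa1 and Saa2 are near-identical, so the split of reads between them in the authors' counting is uncertain. Saa3 is more diverged from both. Mt2, a metallothionein that binds zinc and copper, measured 20 to 28.6 CPM after free R848 and 64.0 and 241 CPM after medium BPD (log2 fold change 2.58 ± 0.502 SE, adjusted p = 0.0457). Mt2 was no longer called without medium BPD tumor 2, saline tumor 1 or any 1 of the free R848 tumors.

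Against saline, Cp, Cfb, Mt1 and Mt2 rose after medium BPD, where 6.94% of all genes were called. Saa1 and Orm1 were also called, but had no UMI in the saline and free R848 tumors and passed the filter only through medium BPD, where Orm1 measured 8.27 and 3.91 CPM. Cp, ceruloplasmin, a copper-carrying ferroxidase, measured 1.63, 14.6 and 4.95 CPM after saline, 13.7, 7.65 and 9.43 CPM after free R848 and 63.9 and 65.3 CPM after medium BPD (log2 fold change 3.05 ± 0.560, edgeR adjusted p = 0.0165, lost without either medium BPD tumor). Cfb, complement factor B, rose by 0.803 ± 0.173 on the log2 scale (edgeR adjusted p = 0.0295) with means of 96.9, 160.3 and 170.5 CPM over the 3 treatments, a call lost without saline tumor 1 or 3, any 1 of the free R848 tumors or medium BPD tumor 2. Of the 12 acute-phase genes tested, 6 were called against saline, and the other tested genes were not. The listed genes that were not tested, Crp, Hamp and Itih3 among them, did not pass the filter on low counts. Between free R848 and saline no gene of the 4 lists was called by edgeR, where 1279 of all genes had an unadjusted p under 0.05 and DESeq2 called 48 genes. No listed gene was called by edgeR between medium BPD and free R848 in MC38-gated cells (9, 6, 24 and 7 tested).

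Of 11 neutrophil granule proteins tested, Mmp8 and Itgam rose between medium BPD and free R848. Mmp8, a neutrophil collagenase, measured 21.1, 21.9 and 34.6 CPM after free R848 and 201 and 249.8 CPM after medium BPD (log2 fold change 3.15 ± 0.544, edgeR adjusted p = 0.0305). Itgam, which encodes the integrin CD11b of myeloid cells, rose from a mean of 1017 to 1839.7 CPM (log2 fold change 0.855 ± 0.161, adjusted p = 0.0413). Both calls were lost when saline tumor 1, any free R848 tumor or either medium BPD tumor was left out. The median log2 fold change of the list was 0.236 and that of all genes -0.01. Against saline S100a8 rose as well (log2 fold change 3.72 ± 0.593, adjusted p = 0.0101, lost without medium BPD tumor 2), and it was the only gene of this list to rise over both steps without overlap.

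Of 26 inducing cytokines, receptors and transcription factors tested, 1 (3.85%) rose between medium BPD and free R848, near the 1.51% called over all genes, so the count says nothing of the list. This was Il1r1, the IL-1 receptor, at 0.928, 1.09 and 1.57 CPM after free R848 and 16.0 and 30.5 CPM after medium BPD. Its free R848 values rest on few UMIs. It may have passed the filter only through the medium BPD tumors, in which it is high, so its call is no support and its p is not given. The call was lost without medium BPD tumor 2 or any 1 of the free R848 tumors. Saa1 and Il1r1 average under 10 CPM and were named, outside the rule for named genes, because so few genes were called. The median log2 fold change of the list was -0.117. The cytokines and the R848 receptor did not pass the test: Il6 measured 3.71 and 5.11 CPM on average after free R848 and medium BPD, Il1b 2726 and 1744 CPM, Tnf 182 and 137 CPM and Tlr7 98.4 and 97.7 CPM. Stat3 averaged 254 and 318 CPM and Cebpb 229.5 and 230.3 CPM. Against saline, 6.94% of all genes were called. Of this list Il1r1 alone was called higher after medium BPD, with the same limit, and 3 genes fell. Nfkbiz fell by 0.857 ± 0.189 on the log2 scale (edgeR adjusted p = 0.0312), Nfkb1 fell by 0.810 ± 0.127 (0.00923) and Rel fell by 1.20 ± 0.275 (0.0364). Each of these 3 calls was lost without either medium BPD tumor, and those of Nfkbiz and Rel also without saline tumor 1 and without free R848 tumor 1 or 2, that of Rel without saline tumor 3 and that of Nfkbiz without free R848 tumor 3.

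Among 11 receptors and ligand partners tested, the formyl peptide receptors Fpr1 and Fpr2 rose and Tlr2 fell between medium BPD and free R848, with a median log2 fold change of 0.805 over the list. Fpr2 is a receptor at which serum amyloid A is known to act. Fpr1 measured 5.83, 10.3 and 7.23 CPM after saline, 16.7, 12.7 and 18.5 CPM after free R848 and 142 and 126 CPM after medium BPD. Its log2 fold change from free R848 was 3.09 ± 0.213 (edgeR adjusted p = 0.000674), and it was called in all 17 alternative fits, with adjusted p of at most 0.0102. Fpr1 was also the only gene of this list to rise over both steps without overlap. Fpr2 measured 63.6, 39.1 and 62.9 CPM after free R848 and 163 and 157 CPM after medium BPD (log2 fold change 1.54 ± 0.274, adjusted p = 0.034). Tlr2, the receptor for bacterial lipopeptides, measured 365, 395 and 442 CPM after free R848 and 209 and 153 CPM after medium BPD (log2 fold change -1.14 ± 0.222, adjusted p = 0.0456). The calls of Fpr2 and Tlr2 were lost without any 1 of the free R848 or medium BPD tumors, that of Tlr2 also without saline tumor 1.

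Against saline Cd163, the haptoglobin-hemoglobin receptor, and Hmox1, heme oxygenase-1, which breaks down heme, rose after medium BPD. Cd163 measured 1.63, 0.281 and 2.66 CPM after saline, 0.232, 8.09 and 0.786 CPM after free R848 and 8.81 and 59.8 CPM after medium BPD (log2 fold change 4.72 ± 1.18, edgeR adjusted p = 0.0466). The Cd163 call was lost without any 1 saline tumor, free R848 tumor 1 or 3 or medium BPD tumor 2. Hmox1 measured 129, 62.1 and 234 CPM after saline, 174, 270.0 and 301 CPM after free R848 and 490.5 and 1051 CPM after medium BPD (log2 fold change 2.45 ± 0.503, adjusted p = 0.0255, lost without saline tumor 1 or medium BPD tumor 2). P2rx7, an ATP-gated channel, also rose against saline (adjusted p = 0.0119, lost without medium BPD tumor 2). The lipocalin-2 receptor gene Slc22a17 did not exceed 0.437 CPM in any tumor and was not tested.

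The genes whose levels ran most like the members were found over 46 sums of a class in a tumor, among 9237 genes, by Pearson's r of log2(CPM + 1). These sums share libraries, depth and treatment, so the coefficients are a description. For Saa3 they were Nos2 (0.83), Lcn2 (0.80), Sod2 (0.74), Xdh (0.73) and Cp (0.73), with Hp at rank 14 (0.65). For Lcn2 they were Nos2 (0.84), Sod2 (0.81), Saa3 (0.80), Hp (0.80) and Grina (0.78). For Hp they were Fth1 (0.85), Socs3 (0.84), C3 (0.83), Sod2 (0.82) and Irak3 (0.81), with Lcn2 at rank 10 (0.80) and Saa3 at rank 126 (0.65). Nos2 encodes inducible nitric oxide synthase and Sod2 the mitochondrial superoxide dismutase. Sod2 was the only gene among the leading 5 of all 3 members, and Hp stood closer to Lcn2 than to Saa3.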

How the data were processed

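Tumors of 8 mice were profiled by Seq-Well. The authors deposited 1 table of raw UMI counts for each tumor, with gene symbols in rows and barcodes in columns, not normalized. The submitters' processing notes name bcl2fastq and mm10, while the aligner and annotation are not given in the sources used here.

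The members and the 4 lists were chosen with earlier results of these data known. Limits on cells (genes between 400 and 10000, UMIs under 50000, mitochondrial share of 15% or less) left 9886 barcodes, and removal of those found in several libraries left 9827. A cell joined a class with at least 3 panel genes (5 of 10 for monocytes and macrophages), when its share of the panel led the next class by 25 percentage points. No doublet caller was run. A total of 648 barcodes with markers of several classes and no such lead, and 653 with none, were kept apart. From the panels, 10 genes found in under 0.2% of cells were dropped. Counts were summed per tumor and class of at least 10 cells.

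Sums were tested in R 4.3.3 with edgeR 4.0.16 (limma 3.58.1): TMM, filterByExpr, quasi-likelihood F test over all 8 tumors, Benjamini-Hochberg over all genes, called under 0.05. SE was taken as log2 fold change divided by the root of F. The scripts were tested on simulated counts. Named list genes are at most 4 per list and direction, with the largest change among those called with a mean of at least 10 CPM; others are given as known inducers or partners, chosen after their values were seen. Intervals (exact binomial or Poisson, 95%) and limits from 3 counts cover counting error only. Alternatives included DESeq2 1.42.0, other filters, gates, depths and each tumor left out, and, chosen after the data were seen, sums without the cell with most UMIs of a gene. Python 3.11.15, numpy 2.4.6, scipy 1.17.1, pandas 2.3.3 and matplotlib 3.10.9 were used.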

Additional observations from a re-analysis of the deposited data

Results flagged for a closer look

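Groups of 4 to 10 tumors did not occur, so no tumor was tested as a value far from its group. Hp differed between saline and free R848 in opposite directions in 2 classes by its plain values: on the macrophage side the mean after free R848 was 1.97 times that after saline, with no overlap between tumors, while DC-gated cells measured 8.32 and 6.71 CPM in the 2 saline tumors with a value and 0 in all 3 free R848 tumors. The saline DC values rest on 5 UMIs, and the 95% upper limits of the free R848 values, 15.4, 15.9 and 17.6 CPM before TMM scaling, are above both, so a fall is not shown at this depth. The difference between the classes was not tested.

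Saa3 and Lcn2 were also present after medium BPD in barcodes that no comparison used. Barcodes shared by libraries carried 8706 and 808 CPM of Saa3 and 433 and 346 CPM of Lcn2 in tumors 1 and 2, where the tumor 2 values rest on 7 and 3 UMIs. Barcodes outside the limits on cells carried 1615 and 2114 CPM of Saa3 and 129 and 376 CPM of Lcn2. Barcodes that passed no gate carried 2302 and 1949 CPM of Saa3 and 252 and 236 CPM of Lcn2. The same kinds of barcode in the saline tumors carried at most 52.4 CPM of Saa3 and 9.22 CPM of Lcn2, each from 1 UMI. In the free R848 tumors they carried at most 93.2 CPM of Saa3 (20 UMIs) and 22.6 CPM of Lcn2 (6 UMIs).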

How the results depend on the processing

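In the whole monocyte/macrophage class, the ratios of medium BPD to free R848 kept their direction for Saa3, Lcn2 and Hp under the alternatives tried on it. They also stayed within the spread between tumors. That of Hp was 4.78 there, but 3.71 on the monocyte side and 16.6 on the macrophage side. The ratios of free R848 to saline were less stable. The log2 ratio of Lcn2 was 3.05 as a mean of log2(CPM + 1), 5.81 with a stricter gate and 3.93 to 6.27 with 1 tumor left out, and that of Saa3 1.13 to 3.66. That of Hp turned to 0.0443 as a mean of log2(CPM + 1) and ran from -0.59 to 0.43 with 1 tumor left out, positive without saline tumor 1 or free R848 tumor 2. The cause was not tested. Co-detection of Saa3 and Lcn2, averaging 23.3% (ratio to the product 1.22), was 17.7% (1.31) at 500 UMIs, 33.7% (1.19) at 2000, 46.8% (1.10) without thinning and 13.6% (1.39) with at least 2 UMIs, and the ratio was 1.21 with a stricter gate. The share of T- and NK-gated cells with Saa3, 8.62%, was 3.0% at 500 UMIs, 31.9% without thinning and 1.22% with at least 2 UMIs, as fewer or more UMIs were drawn.

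Between medium BPD and free R848, edgeR called 162 genes in monocyte/macrophage-gated cells (99 higher, 63 lower), DESeq2 353, edgeR with no filter on low counts 906, with only the 2 treatments compared 496, and with 1 tumor left out 16 to 552. The 552 came without saline tumor 2, and 16 without free R848 tumor 2 or 3 or medium BPD tumor 2. Between free R848 and saline, edgeR called 2 genes, DESeq2 48, and edgeR 564 with no filter, 0 with only those treatments, 1 with stricter limits on cells, 0 on the macrophage side and 0 to 122 with 1 tumor left out (122 without saline tumor 2). Between medium BPD and saline, 742 genes became 1765 with no filter, 173 with only those treatments and 95 to 1213 with 1 tumor left out (95 without medium BPD tumor 2, 1213 without saline tumor 2). In MC38-gated cells 51 genes became 129 with DESeq2, 446 with no filter, 182 with a stricter gate and 8 to 322 with 1 tumor left out (322 without medium BPD tumor 1). Same-numbered tumors deviated together with correlations of -0.22 to 0.18. With so few tumors per group these values cannot show whether the numbers pair the tumors. With the replicate number as a block, the 4 counts were 31, 0, 372 and 19.

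Each call that involves medium BPD rests on 2 tumors of that group. Depth limits Lcn2 after saline (5 UMIs in monocyte/macrophage-gated cells), and few fibroblasts, neutrophils and T cells limit what can be said of them.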
